A study of Mus musculus with 16 samples.

Results

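The genes described here are the mouse zinc finger genes named Zfp with a number from 600 to 999. They were chosen by symbol: protein-coding genes of that form with a mean of at least 1 CPM (raw counts scaled to the library total) over all 16 libraries, which kept 124 of 171 candidates among 57132 genes in the table. The 3 genes just inside the limit were Zfp993, Zfp618 and Zfp820 at a mean of 1.014, 1.007 and 1.004 CPM, and the 3 just outside were Zfp982, Zfp947 and Zfp937 at 0.9734, 0.9045 and 0.7865 CPM. The rule used the mean level over all libraries, so that level is a description, and the differences between groups were not part of it.

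RNA was sequenced from whole bone marrow of mice of 2 genotypes, each under 4 treatments, with 2 libraries in each of the 8 groups. The wild type (WT) is C57BL/6, written CB57BL/6 in the sample labels, with males of 8 to 10 weeks. The second genotype (KO) carries Nrf2-/-, the loss of the antioxidant transcription factor encoded by Nfe2l2, bred from Nrf2+/- parents of both sexes and left with a mutant, inactive form; age and sex of the KO animals are not stated, so genotype cannot be told apart from either. The treatments were PBS as control, BMX-001 (a manganese porphyrin that acts as a superoxide dismutase mimic) at 0.5 mg/kg, 5-fluorouracil (5-FU, which blocks thymidylate synthesis) at 20 mg/kg, and both agents together. The first dose of BMX-001 preceded that of 5-FU by 24 hours and later doses were 3 days apart. 5-FU was given again after 7 days, and the marrow was harvested 10 days after its first dose. Isolation was in duplicate, and the labels do not say that duplicates are separate animals, so the p-values measure the spread between these libraries only, which may be technical.

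Zinc finger proteins of this kind bind DNA through tandem C2H2 fingers, in which pairs of cysteines and histidines hold a zinc ion. Many carry a KRAB domain at the amino end, which recruits Trim28 (KAP1) and, through it, the histone methyltransferase Setdb1 and the heterochromatin protein Cbx5. KRAB zinc finger genes sit in clusters that grew by duplication and are best known for silencing endogenous retroviruses and other repeats.

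A KRAB A-box-like sequence was found in the translated transcripts of 76 of the 124 genes, and 48 had no match. This division was made after values of the genes had been seen and is used here as a description. The search used 1 pattern in every forward reading frame, so a match need not lie in the frame of the fingers. How many KRAB domains it missed, and how many matches are not KRAB domains, was not tested. A gene without a match may thus still carry a KRAB domain, and "KRAB genes" below means genes with a match. The genes with a match held a median of 12 zinc fingers in the longest reading frame, had a median transcript GC content of 40.18% and a median level of 6.813 CPM. Those without a match held a median of 7.5 fingers, with a GC content of 51.1% and a level of 18.33 CPM. Over all 124 genes the GC content ran from 33.21% to 68.67% with a median of 42.54%, against 49.76% for the 13773 protein-coding genes tested, and the length of the longest transcript had a median of 3477 bases against 3383. The median GC content was thus lower in the genes with a KRAB match than in those without. The genes lay mostly on chromosomes 7 (31 genes), 17 (19, all with a KRAB match), 8 (13) and 13 (8). At least 1 stretch of 151 bases, the read length, was shared with a transcript of another gene in 29 of the 124, and 8 shared over 10% of such stretches (Zfp617, Zfp653, Zfp865, Zfp963, Zfp984, Zfp991, Zfp992 and Zfp993). Another gene overlapped 26 of them on the same strand and 44 on the opposite strand. How the authors counted reads of copies and overlapping genes is not given in the sources used here, so levels of these genes are uncertain.

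The promoters of 4 genes are shown because they are the 3 KRAB genes of smallest p after 5-FU in WT marrow and, for contrast, Zfp628, whose level stood lower there. Each is the RefSeq window from 250 bases before to 50 bases after the first listed transcription start, 5′ to 3′ on the strand of the gene, in build GRCm38.p6: chr8:4612920-4613219 on the plus strand for Zfp958, chr13:62129640-62129939 on the plus strand for Zfp808, chr8:69774862-69775161 on the minus strand for Zfp866 and chr7:4914967-4915266 on the plus strand for Zfp628. Capitals mark the letters CCAATCAG, a CCAAT-type sequence, and AGGCGNGTTCTTC, the longest stretch that the first 3 promoters share with at most 1 differing position (N). Both were searched on both strands.
Zfp958: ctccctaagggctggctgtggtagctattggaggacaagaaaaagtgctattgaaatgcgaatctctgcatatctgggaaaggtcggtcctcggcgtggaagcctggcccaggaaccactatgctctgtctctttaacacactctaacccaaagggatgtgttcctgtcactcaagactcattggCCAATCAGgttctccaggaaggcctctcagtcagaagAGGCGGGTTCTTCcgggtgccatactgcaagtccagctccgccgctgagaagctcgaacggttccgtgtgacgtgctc
Zfp808: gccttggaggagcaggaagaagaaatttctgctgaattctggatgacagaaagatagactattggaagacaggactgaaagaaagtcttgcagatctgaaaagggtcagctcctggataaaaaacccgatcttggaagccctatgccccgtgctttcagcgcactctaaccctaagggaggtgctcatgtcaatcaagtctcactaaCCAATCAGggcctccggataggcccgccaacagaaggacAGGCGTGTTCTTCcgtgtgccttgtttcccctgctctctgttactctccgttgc
Zfp866: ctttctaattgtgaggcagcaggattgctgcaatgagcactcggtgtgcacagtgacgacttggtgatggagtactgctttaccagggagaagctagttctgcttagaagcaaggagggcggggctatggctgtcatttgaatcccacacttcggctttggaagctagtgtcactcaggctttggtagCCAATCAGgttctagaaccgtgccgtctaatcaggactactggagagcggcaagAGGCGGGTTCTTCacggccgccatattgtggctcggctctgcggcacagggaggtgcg
Zfp628: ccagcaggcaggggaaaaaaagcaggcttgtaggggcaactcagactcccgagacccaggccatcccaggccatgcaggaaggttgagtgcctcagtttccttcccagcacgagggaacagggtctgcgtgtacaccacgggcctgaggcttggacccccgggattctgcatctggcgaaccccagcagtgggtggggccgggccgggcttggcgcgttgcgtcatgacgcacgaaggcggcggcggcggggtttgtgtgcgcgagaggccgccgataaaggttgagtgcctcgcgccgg

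The 3 KRAB promoters held both sequences in the same order, and Zfp628 held neither. A RefSeq window was matched for 107 of the 124 genes (70 with and 37 without a KRAB match). CCAATCAG occurred in 19 of the 70 KRAB promoters (27.1%), in 1 of the 37 others (2.7%) and in 4.31% of all 27025 promoters. Among the 158 promoters of Zfp1 to Zfp599, taken at any level, 14 held it (8.86%). The letters AGGCGNGTTCTTC occurred in 3 of the 70, those printed here, and in 11 of all promoters (0.0407%). Both strings were picked after these promoters had been read, and promoters of duplicated genes share their origin. Among the KRAB genes, the 19 with CCAATCAG had a median log2 fold change of 0.53 after 5-FU in WT and the 51 without it 0.48. Over the 107 genes the 20 with it, 19 of them KRAB genes, had 0.49 and the 87 without it 0.34. A relation of the string with the fold change was not tested. The antioxidant response element, the sequence bound by Nrf2 (TGACNNNGC, both strands), was present in 20 of the 107 promoters (18.7%), in 12% of those of Zfp1 to Zfp599 and in 12.5% of all promoters. The 20 genes that held it had a median log2 difference of -0.03 between KO and WT over the 4 treatments, and the 87 without it -0.01. A match of letters is a description, not a binding site.

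The libraries held 27305707 to 39909188 counts. Nfe2l2 was at 102.2 to 121.8 CPM in the 8 WT libraries and at 6.481 to 16.66 CPM in the 8 KO libraries, so the genotype labels hold for every library. Defining genes of marrow were present, with summed levels of 49110 to 92800 CPM for 10 erythroid and 25520 to 33600 CPM for 10 neutrophil genes. One library stood apart: KO BMX-001 replicate 1 held Malat1, an RNA kept in the nucleus, at 12210 CPM where the other 15 libraries lay between 2549 and 5345, and Neat1 at 1114 CPM where they lay between 115.8 and 238.8. Because all groups share 1 estimate of the spread, it touches every test, and results that rest on it are given also without it, as the 15-library fit.

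Levels per transcript length were highest for Zfp869, Zfp706 and Zfp740, with a mean of 30.96, 22.74 and 22.58 CPM per kilobase, and the median gene of the 124 was at 8.72 CPM. By CPM the 5 highest were Zfp871 (174.4), Zfp652 (147.4), Zfp644 (115.9), Zfp638 (114.4) and Zfp646 (107.9), only the first of which has a KRAB match. Zfp652 is a DNA-binding partner of the corepressor Cbfa2t3, Zfp644 works with the histone methyltransferases G9a and GLP, and Zfp638 recruits the HUSH silencing complex to foreign DNA. The range over libraries was narrow in some of them: Zfp646 lay between 94.5 and 116.1 CPM in all 16 libraries and Zfp652 between 126.5 and 165.8 CPM.

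The first comparison asks what 5-FU did in WT marrow. Most KRAB zinc finger genes stood higher after 5-FU than after PBS, and 1 of them, Zfp958 (ENSMUSG00000058748, chromosome 8), passed the test. It was the only gene called of all 19152 tested, and 0 of them were called lower (0%). It was at 6.44 and 6.142 CPM in the WT PBS libraries and at 12.47 and 12.87 CPM after 5-FU. Both treated libraries were at about double either control, and the groups did not overlap. Zfp958 rose by 1.01 ± 0.13 (log2 fold change ± standard error) with an adjusted p of 0.04302 in edgeR's quasi-likelihood test. This call was lost with the replicate number as a block (adjusted p = 0.1136 in edgeR) and when only the 2 groups compared were fitted (0 of the 124 called), both at nearly the same fold change. The other treated WT libraries also lay above the controls, at 9.095 and 9.827 CPM after BMX-001 and 10.92 and 11.58 CPM after both agents. In KO marrow Zfp958 was at 7.598 and 7.511 CPM after PBS, 8.731 and 9.129 after BMX-001, 10.25 and 11.3 after 5-FU and 10.48 and 10.01 after both. Every treated library of either genotype was thus above all 4 PBS libraries. No window of this transcript was shared with another gene and no gene overlapped it.

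**Figure D1:**
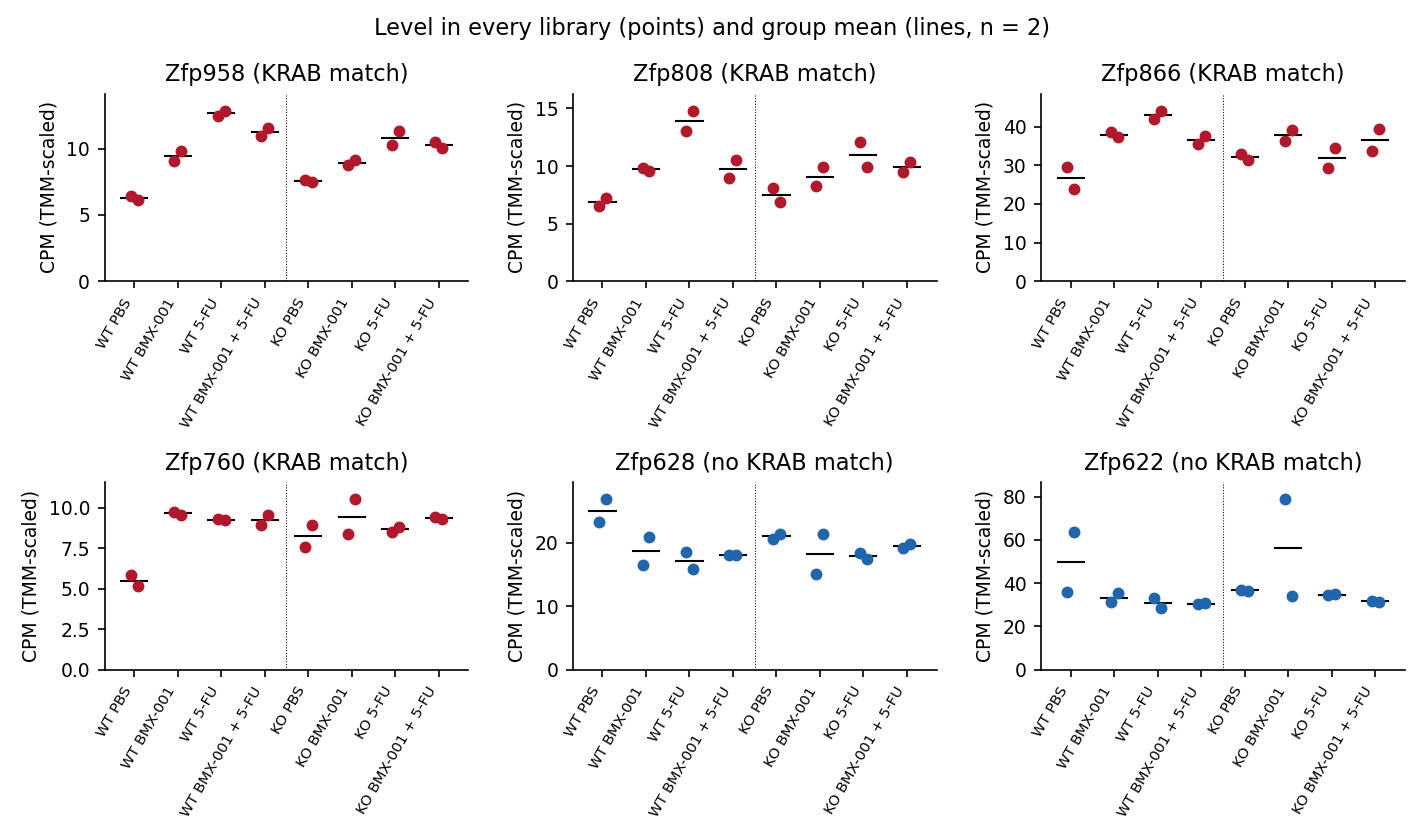
Level of 6 zinc finger genes in CPM (TMM-scaled, linear axes from 0) in each of the 16 libraries, with 2 points and a line for the mean of each group and a dotted line between WT and KO. In Zfp958 and Zfp760 the 2 WT PBS libraries lie below every other library, and in Zfp622 single libraries of WT PBS (63.62 CPM) and KO BMX-001 (78.92 CPM) stand far above the rest.

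With 1 of 124 genes called (background 0.00522% of all genes tested), the counts at an unadjusted p under 0.05 describe the group better. In the higher direction 49 of the 124 reached it, against 7.22% of all genes, and 42 of the 49 had a KRAB match. In the lower direction 4 did, none with a KRAB match, against 7.23%. The median log2 fold change was 0.30 over the 124 genes, 93 of them above 0, and -0.00 over all genes tested. It was 0.49 over the 76 KRAB genes, 69 of them above 0, and -0.02 over the 48 others, 24 above 0. The 159 genes Zfp1 to Zfp599 at 1 CPM or more had a median of 0.13. The difference between the genes with and without a match was not tested, and their GC content differs, as given above. By chromosome the median was 0.57 for the 19 genes on chromosome 17 (18 above 0), 0.67 for the 8 on chromosome 13 (8 above 0), 0.10 for the 31 on chromosome 7 (19 above 0) and -0.14 for the 7 on chromosome 6, none of which has a KRAB match.

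Zfp808 was at 6.496 and 7.256 CPM after PBS and at 13.03 and 14.82 CPM after 5-FU in WT. Its neighbour Zfp934 was at 3.137 and 3.533 against 6.179 and 6.142 CPM. Zfp808 shared 3.181% of its 151-base stretches with other genes, Zfp934 among them, and both are overlapped by other genes on the same strand, so their counts are uncertain. Zfp866 was at 29.65 and 23.83 CPM after PBS and at 41.92 and 44.18 CPM after 5-FU. In each of these 3 genes both treated libraries lay above both controls, yet with all 16 libraries none passed, at adjusted p = 0.06959, 0.07688 and 0.07688 in edgeR for Zfp808, Zfp934 and Zfp866.

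Zfp760 had 5.829 and 5.164 CPM after PBS and 9.282 and 9.238 CPM after 5-FU. Zfp930 had 6.357 and 6.088 against 9.903 and 11.97 CPM. Zfp933 had 7.162 and 5.381 against 10.13 and 11.06 CPM, and Zfp953 had 11.85 and 9.349 against 16.34 and 17.64 CPM. All 4 have a KRAB match, and in none did the groups overlap. Most genes named here and in the other comparisons were picked for small p or extreme fold change. That their groups did not overlap is therefore a description, and no share over all genes is given beside it. Zfp970, the gene with the highest fold change of the 124 (1.09 ± 0.32), was close to the limit of 1 CPM at 0.7217 and 0.5979 against 1.241 and 1.572 CPM, and its counts are small and partly shared with predicted genes of the same cluster. Zfp809, a KRAB protein that silences retroviruses through their primer binding site, was at 19.74 and 16.69 CPM after PBS and at 26.46 and 24.35 CPM after 5-FU.

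The genes with the lowest fold changes had no KRAB match. Zfp622, whose yeast homologue acts in maturation of the large ribosomal subunit, was at 36.11 and 63.62 CPM after PBS and at 33.26 and 28.7 CPM after 5-FU, and the difference rested on the second control library: the log2 fold change was -0.69 ± 0.32 with both controls and -0.22 without WT PBS replicate 2. Zfp775 was at 3.137 and 3.18 against 1.89 and 2.039 CPM. Zfp628 was at 23.18 and 26.85 against 18.45 and 15.82 CPM. In Zfp775 and Zfp628 the groups did not overlap, and neither passed with 16 libraries.

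The number of calls rested on libraries of a group outside the comparison. The KO BMX-001 libraries differed from each other, and leaving out either one gave 33 calls. Without replicate 1, the library that stands apart, the fold change of Zfp958 stayed at 1.01 and that of Zfp808 at 1.02, and the standard error of Zfp808 went from 0.16 to 0.15. Then 32 of the 124 genes rose after 5-FU in WT, against 3.13% of all genes, and 1 fell, against 3.74%. Of the 32 genes that rose, 28 had a KRAB match. Zfp958 (adjusted p = 0.001771 in edgeR), Zfp808 (0.003126), Zfp950, Zfp866, Zfp930, Zfp760, Zfp953, Zfp934, Zfp933, Zfp809, Zfp871 and Zfp970 were among them in that fit. The others included Zfp638 and Zfp664, which have no match. The gene that fell was Zfp628, by 0.55 on the log2 scale with adjusted p = 0.01566. DESeq2 on all 16 libraries called 23 genes, against 1.29% of all genes, all of them higher. The count also rested on single libraries of the 2 groups: with 1 more library left out, it became 33 or 12 when that was the first or the second WT PBS library, and 10 or 1 when it was the first or the second WT 5-FU library. With all 16 libraries but 1, Zfp958 was called in 3 of 16 such fits (without WT PBS replicate 1 or either KO BMX-001 library), with adjusted p from 0.001685 to 0.5845 and a log2 fold change of 0.97 to 1.04 throughout.

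GC content moved with these differences. In WT PBS replicate 1 and 2, levels of protein-coding genes relative to their mean over libraries rose by 0.15 and 0.04 log2 units for each 10 percentage points of GC content; in the WT 5-FU libraries they fell by 0.02 and 0.11. Over the other protein-coding genes the median log2 fold change of 5-FU in WT went from 0.11 in the lowest quintile of GC content (30.96% to 43.89%) to -0.19 in the highest. In that lowest quintile stood 72 of the 124 genes, with a median of 0.52 and 68 above 0. The 61 KRAB genes there had a median of 0.58, and the 11 without a match 0.30. In the highest quintile the 10 zinc finger genes had -0.20, close to the -0.19 of the other genes there. Within the lowest quintile the zinc finger genes thus lay above the other genes, and within the highest the medians were alike.

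When the trends with GC content and length were removed from each library, the median over the 124 genes was 0.13 in place of 0.30, and that of the KRAB genes 0.31 in place of 0.49, with 63 of 76 above 0. Zfp958 then had a log2 fold change of 0.76 with adjusted p = 0.1491, and 0 of the 124 genes were called in edgeR's test with 16 libraries (0%), with 27 higher (5.74%) and 4 lower (4.94%) at an unadjusted p under 0.05. In the 15-library fit with the trends removed, 7 rose, against 0.472% of all genes, and 0 fell: Zfp958, Zfp808, Zfp866, Zfp809, Zfp825, Zfp950 and Zfp664. In the lowest quintile of GC content the zinc finger genes then had a median of 0.31 and the other protein-coding genes -0.08. Both had been higher before removal, as given above, so the other genes there moved down as well. Here and in the comparisons that follow, medians after removal are given without that of all genes. In every quintile of transcript length the zinc finger genes lay above the others: in the shortest quintile the 11 zinc finger genes had a median of 0.48 against -0.19 for other genes, and in the longest the 26 had 0.23 against 0.11.

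**Figure D2:**
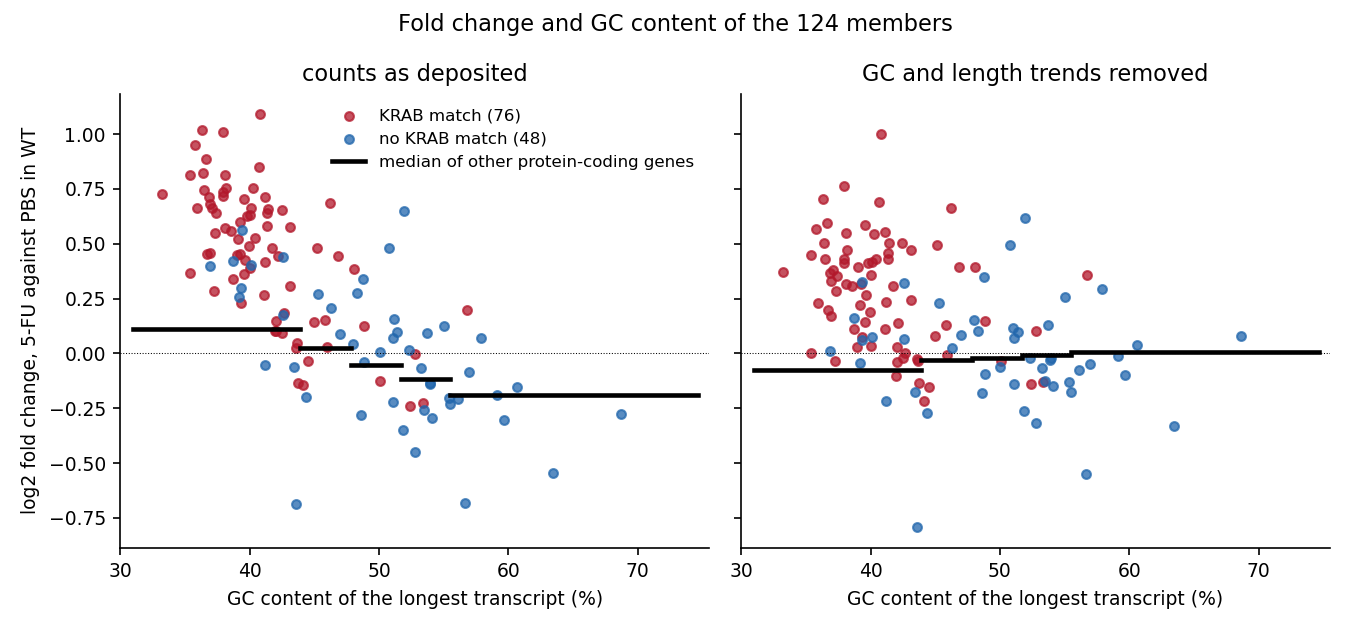
Log2 fold change of 5-FU against PBS in WT marrow plotted over the GC content (%) of the longest transcript, 1 point for each of the 124 genes, before (left) and after (right) removal of GC and length trends; black bars give the median of the other protein-coding genes in each quintile of GC content. The bars fall from 0.11 to -0.19 on the left and are nearly level on the right, where most of the 61 KRAB genes in the lowest quintile remain above the bar (median 0.33 against -0.08).

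Of 10 lists of cell type markers, 5 did not overlap between these groups, and all 5 summed lower after 5-FU in WT. The 10 erythroid markers summed to 59350 to 74850 CPM after PBS and 49110 to 50420 CPM after 5-FU, and the 10 neutrophil markers to 28720 to 31990 against 25520 to 28190 CPM. The monocyte sum was 1213 to 1233 against 1101 to 1142 CPM, that of the B lineage 851.4 to 960.5 against 766.6 to 812 CPM and that of plasma cells 272.5 to 582.2 against 238.6 to 263 CPM. The sums of the macrophage, T and NK, megakaryocyte (92.27 to 398.7 against 376.1 to 621 CPM), stromal and bone (431.4 to 672.7 against 641.9 to 658.4 CPM) and progenitor markers overlapped. No marker of these lists was at 0 in all libraries. These sums are raw counts scaled to the library total. Here and in the comparisons that follow, counts of lists without overlap have no background share beside them. With 2 libraries in a group, sums can lie apart by chance. The part of these cell types in the zinc finger values was not tested in any comparison. In whole marrow a change in the share of a cell type cannot be told apart from a change of RNA per cell.

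The control libraries were the low ones. Relative to each gene's mean over 16 libraries, the median of the 76 KRAB genes was -0.24 and -0.33 log2 units in the WT PBS libraries and between 0.02 and 0.24 in the 6 drug-treated WT libraries. In KO it was -0.08 and -0.17 after PBS and between -0.01 and 0.12 in the 6 treated libraries. The 48 genes without a match stayed between -0.12 and 0.05 in all 16 libraries, with the lowest value in KO BMX-001 replicate 1. In WT marrow 49 of the 124 genes were higher in all 6 treated libraries than in both PBS libraries, against 8.9% of all genes, and 44 of the 49 had a KRAB match. Lower in all 6 were 12 genes, against 9.44%, none with a match. In KO marrow 19 genes were higher in all 6, against 6.58%, and 2 lower, against 8.69%. The PBS libraries were thus the lowest for the KRAB genes in both genotypes, and every comparison with PBS draws on the same 2 libraries of its genotype.

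**Figure D3:**
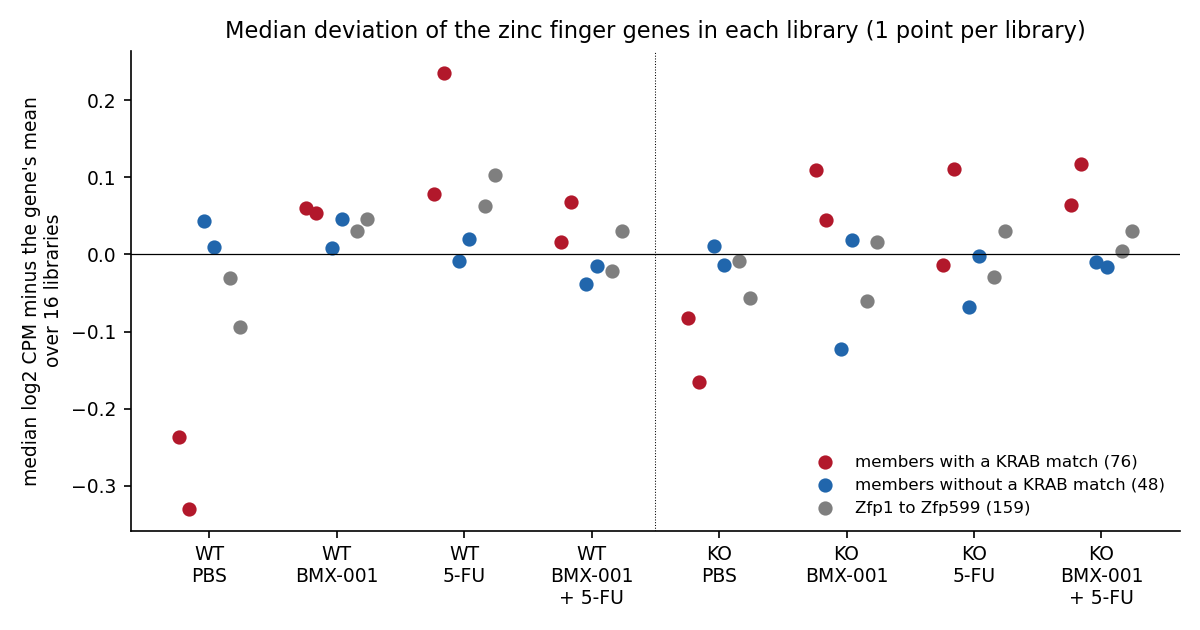
Median deviation of log2 CPM from each gene's mean over 16 libraries, 1 point per library and gene group (76 genes with a KRAB match, 48 without, and 159 genes Zfp1 to Zfp599), by genotype and treatment. The KRAB points lie lowest in WT PBS (-0.24 and -0.33) and next in KO PBS (-0.08 and -0.17), while the genes without a match stay near 0.

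BMX-001 alone against PBS in WT gave a similar picture at a smaller size. The median log2 fold change was 0.21 over the 124 genes and 0.39 over the KRAB genes, 71 of 76 above 0, against -0.02 over the 48 others. None of the 124 was called in edgeR's test (0% of all genes), nor in DESeq2 or without KO BMX-001 replicate 1. At an unadjusted p under 0.05 stood 29 higher (3.02% of all genes) and 3 lower (2.08%). Zfp760 had the smallest p: it was at 9.747 and 9.551 CPM after BMX-001 against 5.829 and 5.164 after PBS, a log2 fold change of 0.81 ± 0.15 with adjusted p = 0.9607. The groups did not overlap in Zfp760, nor in Zfp958, Zfp866 (38.62 and 37.24 CPM after BMX-001) or Zfp930 (9.067 and 10.68 CPM), the next 3 by p. With GC and length trends removed the median over the 124 genes was 0.12. Of the marker sums, the erythroid (78590 to 82830 CPM after BMX-001), macrophage (479.3 to 495.9) and B lineage (1017 to 1106) ones lay above both controls and the neutrophil (26370 to 26900), monocyte (1135 to 1202) and T and NK (76.96 to 79.34) ones below.

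After both agents against PBS in WT, the median was 0.20 over the 124 genes and 0.35 over the KRAB genes. With edgeR 0 were called (0% of all genes), 29 were higher at an unadjusted p under 0.05 (3.4%) and 3 lower (3.17%). DESeq2 called 2, Zfp958 and Zfp760. In the 15-library fit Zfp958 rose by 0.84 ± 0.12 with adjusted p = 0.03588. Zfp933 (9.711 and 9.667 CPM) and Zfp930 (10.21 and 9.141 CPM) also lay above both controls and did not pass. With GC and length trends removed the median over the 124 genes was 0.11. Of the marker sums, that of monocytes (1065 to 1202 CPM after both) lay below both controls and that of T and NK cells (88.94 to 111.8 CPM) above.

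The comparison of both agents with BMX-001 alone shares no library with that of 5-FU and PBS, and asks for a 5-FU difference where BMX-001 was given in both groups. Here the median was -0.04 over all 124 and over the 76 KRAB genes alike, with 47 of the 124 above 0; over the 124 it lay between -0.055 and -0.013 when 1 library was left out. The erythroid (64190 to 67750 against 78590 to 82830 CPM) and B lineage (860.2 to 944.5 against 1017 to 1106 CPM) sums were lower after both agents than after BMX-001, and the neutrophil, T and NK and progenitor sums higher. With edgeR 0 were called (0% of all genes) and 0 reached an unadjusted p under 0.05 in either direction (0.799% higher and 1.21% lower among all genes), and DESeq2 called 0. Zfp958 had a log2 fold change of 0.25 ± 0.12, with 9.095 and 9.827 CPM after BMX-001 and 10.92 and 11.58 CPM after both. Its groups did not overlap, at an adjusted p of 1. Zfp970, Zfp933 and Zfp707 followed, with differences of 0.59, 0.26 and 0.36. The difference in size from the comparison of 5-FU with PBS was not tested.

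Adding BMX-001 to 5-FU in WT, against 5-FU alone, gave a median of -0.09 over the 124 genes and -0.13 over the KRAB genes. The first of these was -0.039 without WT 5-FU replicate 2, and -0.03 with GC and length trends removed. The erythroid markers summed to 64190 to 67750 CPM after both against 49110 to 50420 CPM after 5-FU, and those of the B lineage to 860.2 to 944.5 against 766.6 to 812 CPM. With edgeR 0 were called (0% of all genes); 0 were higher (2.17%) and 7 lower (1.76%) at an unadjusted p under 0.05, and DESeq2 called 0. Zfp808 was at 13.03 and 14.82 CPM after 5-FU and at 8.943 and 10.56 CPM after both, and Zfp638 at 138 and 138.5 against 108.7 and 119.1 CPM. Zfp934 was at 6.179 and 6.142 against 3.889 and 4.439 CPM. The groups did not overlap in these 3 genes, with log2 differences of -0.51 ± 0.16, -0.28 ± 0.09 and -0.56 ± 0.18 and adjusted p = 0.9976 each. Zfp800 followed at -0.28 ± 0.11.

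In KO marrow 5-FU against PBS gave a median of 0.08 over the 124 genes and 0.19 over the KRAB genes, 61 of 76 above 0. The median over the 124 became 0.122 without KO PBS replicate 1 and 0.144 without KO 5-FU replicate 1. In 7 of the 10 marker lists the groups did not overlap, a count without a background share that may in part be chance. The erythroid sum was 72430 to 82650 CPM after PBS and 58960 to 63080 CPM after 5-FU, and the monocyte sum 1380 to 1514 against 1091 to 1188 CPM. Higher after 5-FU were the sums of stromal and bone (198.8 to 459.4 against 843.6 to 965.4 CPM), megakaryocyte (138.1 to 256.5 against 412.3 to 557 CPM), macrophage (372.3 to 387.9 against 445.6 to 479 CPM), progenitor (184.1 to 186.8 against 220.1 to 233.5 CPM) and T and NK markers (79.36 to 85.25 against 106.1 to 119.8 CPM). None was called in edgeR's test with 16 libraries (0.454% of all genes, 0.0104% higher and 0.444% lower). At an unadjusted p under 0.05 stood 16 higher, 15 of them with a KRAB match (4.02% of all genes), and 2 lower (5.41%). Zfp958, with the values given above, had a log2 fold change of 0.51 ± 0.13 and adjusted p = 0.119. Zfp930 was at 8.355 and 7.27 CPM after PBS and at 11.78 and 11.54 CPM after 5-FU, and Zfp808 at 8.053 and 6.878 against 12.07 and 9.908 CPM. All 3 are among the KRAB genes of smallest p in WT as well, and their KO groups did not overlap. Without KO BMX-001 replicate 1, Zfp958 (adjusted p = 0.03331) and Zfp930 (0.03573) rose, and DESeq2 with 16 libraries called 1, Zfp958. Zfp788 was at 5.812 and 6.335 against 8.065 and 8.489 CPM.

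The highest fold changes in KO after 5-FU were those of genes at low counts. Zfp820 (0.9082 and 0.6637 against 1.843 and 1.125 CPM) and Zfp618 (0.5146 and 0.8145 against 0.8929 and 1.366 CPM) sat at the limit of 1 CPM, and Zfp948 (2.331 and 2.745 against 4.234 and 3.91 CPM) a little above it. The lowest were those of Zfp710 (99.02 and 92.46 against 74.37 and 76.67 CPM), Zfp689 (5.994 and 5.913 against 4.637 and 4.847 CPM) and Zfp949 (24.85 and 27.66 against 20.91 and 21.74 CPM). None of the 6 passed. Zfp689 and Zfp949 are KRAB genes that stood lower, so the direction was not shared by every gene of that class.

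BMX-001 against PBS in KO contains the library that stands apart. The median over the 124 genes was 0.16 with it and 0.10 without it; it was 0.065 without KO PBS replicate 2 and 0.03 with GC and length trends removed from all 16 libraries. The monocyte sum was 607.8 to 1119 CPM after BMX-001 against 1380 to 1514 CPM, and the neutrophil (27530 to 29640 CPM after BMX-001), plasma cell (384.1 to 385) and progenitor (115.1 to 171.4) sums also lay below both controls. The erythroid (85570 to 92800 against 72430 to 82650 CPM) and B lineage (775.2 to 960.8 against 511.7 to 740.5 CPM) sums lay above. None was called in edgeR's test (0.00522% of all genes); at an unadjusted p under 0.05 stood 23 higher, against 16.5% of all genes, and 3 lower, against 14.1%, and DESeq2 called 7. The higher share of the zinc finger genes was near that of all genes. Zfp950 was at 10.99 and 10.98 CPM after PBS and at 36 and 16.26 CPM after BMX-001, Zfp945 at 4.359 and 4.827 against 12.38 and 6.5 CPM, and Zfp942 at 9.052 and 8.175 against 16.22 and 11.82 CPM. Zfp653, which has no KRAB match, was at 5.086 and 6.214 against 10.97 and 7.569 CPM. In all 4 the higher library was the one that stands apart; without it the log2 fold change of Zfp950 went from 1.25 to 0.56 and its adjusted p in edgeR was 0.4364.

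Both agents against PBS in KO gave a median of 0.13 over the 124 genes and 0.19 over the KRAB genes, 65 of 76 above 0. The median over the 124 was 0.041 without KO PBS replicate 2 and 0.06 with GC and length trends removed. In 7 marker lists the groups did not overlap, again a count without a background share. The erythroid (67000 to 71200 CPM after both), neutrophil (26130 to 32200), monocyte (1005 to 1170) and plasma cell (320.8 to 398) sums lay below both controls. The macrophage (459.7 to 514.9), T and NK (112 to 115.1) and progenitor (217.9 to 221.9) sums lay above. None was called with 16 libraries in edgeR's test (0.606% of all genes, 0.0313% higher), 17 were higher (5.92%) and 2 lower (6.67%) at an unadjusted p under 0.05, and DESeq2 called 1. In the 15-library fit 6 rose, against 1.35% of all genes, all with a KRAB match: Zfp948, Zfp867, Zfp958, Zfp930, Zfp950 and Zfp945. Zfp948 was at 2.331 and 2.745 CPM after PBS and at 4.53 and 5.297 CPM after both (0.95 ± 0.22, adjusted p = 0.01894 in that fit). Zfp867 was at 1.483 and 1.659 against 2.961 and 3.221 CPM. In both genes the treated libraries were at nearly double the controls, and the groups did not overlap.

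Against BMX-001 alone in KO, both agents gave a median of -0.01, with 0 called in edgeR's test (0.225% of all genes), 2 in DESeq2 (Zfp948 and Zfp949), and 7 higher (8.56%) and 5 lower (10.2%) at an unadjusted p under 0.05. Zfp949 was at 32.92 and 27.24 CPM after BMX-001 and at 20.99 and 20.95 CPM after both, with a difference of -0.52 ± 0.12 in the fit of 16 libraries and -0.38 without the library that stands apart. Zfp948 had 2.041 and 2.687 against 4.53 and 5.297 CPM. Zfp759 and Zfp850 followed. Against 5-FU alone in KO the median was 0.03, with 0 called in edgeR's test and in DESeq2 (0% of all genes in edgeR) and 0 at an unadjusted p under 0.05 (1.76% higher and 0.841% lower among all genes). The 4 smallest p were those of Zfp677, Zfp865, Zfp653 and Zfp971, the least of them 0.05058 unadjusted.

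**Figure D4:**
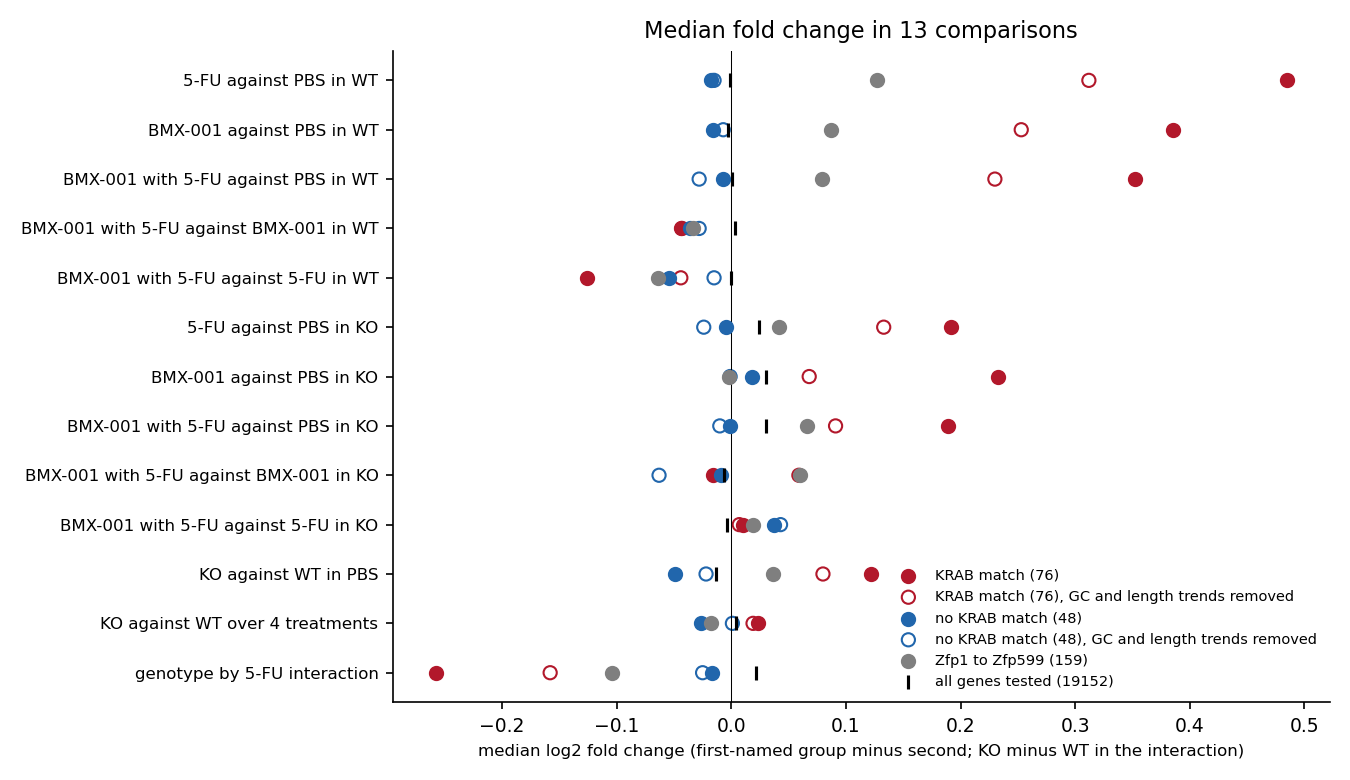
Median log2 fold change in each of 13 comparisons for the genes with a KRAB match (76), those without (48), Zfp1 to Zfp599 (159) and all 19152 genes tested; open circles give the medians after removal of GC and length trends. The KRAB genes lie right of the other groups in the 6 comparisons of a treatment with PBS (0.19 to 0.49) and between -0.13 and 0.01 in the 4 comparisons of both agents with 1 agent.

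No zinc finger gene was called between the genotypes in edgeR's test with 16 libraries. KO against WT averaged over the 4 treatments gave a median of -0.00 over the 124 genes, with 0 called in edgeR's test (0.178% of all genes), 1 in DESeq2, and 4 higher (6.96%) and 5 lower (5.78%) at an unadjusted p under 0.05. Zfp664 had the smallest p, with 29.03 to 38.88 CPM over the 8 WT libraries and 22.28 to 31.46 CPM over the 8 KO libraries. The ranges overlapped, but within each treatment both KO libraries were below both WT libraries except after PBS, where KO replicate 1 (29.52) exceeded WT replicate 2 (29.03). Zfp664 fell by 0.24 ± 0.05 on the log2 scale in the 15-library fit, with adjusted p = 0.0173, and had -0.29 and 0.08856 with all 16 libraries. Zfp617, Zfp971 and Zfp706 followed with differences of -0.23, 0.26 and -0.25, none past the threshold in either fit. Zfp706 encodes a protein of only 76 residues with 1 finger.

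KO against WT under PBS gave a median of 0.04 over the 124 genes, and 0.12 over the KRAB genes, 62 of 76 above 0. The median over the 124 was 0.085 without WT PBS replicate 1 and 0.105 without KO PBS replicate 2. The neutrophil (32350 to 33130 against 28720 to 31990 CPM in WT) and monocyte (1380 to 1514 against 1213 to 1233 CPM) sums were higher in KO, and those of macrophages (372.3 to 387.9 against 408.2 to 444.9 CPM), the B lineage (511.7 to 740.5 against 851.4 to 960.5 CPM) and T and NK cells (79.36 to 85.25 against 86.59 to 88.18 CPM) lower. None was called in edgeR's test (0.0261% of all genes) or in DESeq2, with 8 higher (2.57%) and 0 lower (1.87%) at an unadjusted p under 0.05. Zfp760 was at 7.568 and 8.929 CPM in KO against 5.829 and 5.164 in WT, and Zfp971 at 17.07 and 14.03 against 12.1 and 9.403 CPM. Zfp652 (165.8 and 155.2 against 137 and 126.5 CPM) and Zfp626 (21.01 and 17.1 against 16.93 and 12.88 CPM) followed. In these 4 genes, picked for their small p, the groups did not overlap.

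Whether the response to 5-FU differed between genotypes was tested by the interaction, the fold change in KO minus that in WT. Its median was -0.17 over the 124 genes and -0.26 over the KRAB genes (-0.085 over the 124 with GC and length trends removed), and none was called in edgeR's test (0% of all genes). DESeq2 gave an adjusted p for only 7 of the 124 and called 0. At an unadjusted p under 0.05 stood 10 lower (3.31%) and 0 higher (2.39%). Zfp866 had the smallest unadjusted p: its level was 32.82 and 31.34 CPM after PBS and 29.35 and 34.49 CPM after 5-FU in KO, where the groups overlapped, while the WT groups were far apart. The interaction was -0.69 ± 0.18 with adjusted p = 0.8464. Zfp871 had 148.8 and 149.9 CPM after PBS and 188.2 and 203.6 after 5-FU in WT, but 190.2 and 162.6 against 159.5 and 165.7 in KO. Zfp971 and Zfp638 followed with -0.72 ± 0.21 and -0.42 ± 0.13. A difference between the genotypes in the 5-FU response was therefore not shown for any single gene.

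The genes that KRAB proteins work with were read from a list of 36 corepressor and heterochromatin genes, all tested. With 16 libraries none was called in edgeR's test in any of the 13 comparisons. Trim28, the corepressor itself, was at 275.6 and 243.8 CPM after PBS and at 225.7 and 211.4 CPM after 5-FU in WT. Setdb1 was at 61.43 and 59.57 against 59.22 and 59.63 CPM, and Cbx5 at 508.5 and 437.9 against 625.3 and 634.3 CPM. Setdb1 thus overlapped between the groups, while Trim28 lay lower and Cbx5 higher. At an unadjusted p under 0.05, 7 of the 36 were higher (7.22% of all genes) and 2 lower (7.23%) after 5-FU in WT, with a median of -0.02. In the 15-library fit 6 rose (Cbx5, Atf7ip, Hells, Smarcad1, Fam208a, also called Tasor, and Fam208b, also called Tasor2) and 3 fell (Daxx, Ehmt2 and Mta2), against 3.13% and 3.74% of all genes. The 6 that rose had transcripts of 37.71% to 47.7% GC and the 3 that fell 53.37% to 60.76%. These ranges describe the called genes of that fit only, and a relation with GC content over the 36 was not tested. Cbx1 fell by 0.20 between KO and WT over the 4 treatments in that fit, with adjusted p = 0.02987 in edgeR. The 2 treatment comparisons that contain the KO BMX-001 group had larger counts. Against PBS, 18 of the 36 were lower after BMX-001 at an unadjusted p under 0.05 (14.1% of all genes) and 1 higher (16.5%), with a median of -0.30 that was -0.10 without the library that stands apart. Trim28 was at 241.7 and 247 CPM after PBS and at 115.2 in that library and 211.7 CPM in the other. After both agents against BMX-001, 9 were higher (8.56%) and 1 lower (10.2%), with a median of 0.23 that was 0.03 without it. In each of the other 10 comparisons at most 4 were higher and at most 4 lower, and the median lay between -0.119 and -0.012. The -0.119 was that of KO against WT over the 4 treatments, which also contains the library that stands apart. Without that library it was -0.064.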

How the data were processed

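The deposited file holds raw whole-number counts from the authors, 1 column per library, by Ensembl gene ID. The submitters' processing notes name DESeq2 1.38.3 and R 4.3.0, Salmon 1.4.0 and featureCounts, FastQC 0.12.1 and Trim Galore 0.6.4, and build GRCm39. Not given in the sources used here: which tool counted, with which annotation, and whether by strand. Names, GC content and length came from a GENCODE annotation of the earlier build GRCm38, so no gene coordinates from it are given. Libraries held 27305707 to 39909188 counts. In R 4.3.3, edgeR 4.0.16 (filterByExpr, TMM, robust quasi-likelihood, 8 group means, 8 residual degrees of freedom) tested 19152 genes, all 124 members among them, with Benjamini-Hochberg adjustment over all genes of a comparison and a threshold of 0.05. Levels of single genes in single libraries are TMM-scaled CPM. Marker sums, mean levels over all 16 libraries and CPM per kilobase are raw counts scaled to the library total. GC and length trends were removed as offsets from natural splines with 5 degrees of freedom each. Alternatives were DESeq2 1.42.0, other filters and scalings, a replicate block, fewer groups or libraries. KRAB matches are a pattern search in translated stretches without a stop, of at least 60 residues, in every forward reading frame of protein-coding transcripts. Replicates differed by more than sampling noise (chi-square per degree of freedom 8.91 to 147). Scripts were tested on simulated data. The members, lists and tests were chosen with earlier results of these data known. Named genes are those of smallest p or most extreme fold change in each comparison, of highest CPM and nearest the limit; Zfp809, Zfp825, Zfp867, Zfp869, Zfp740 and those named in the 15-library fit were picked after their values were seen.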

Additional observations from a re-analysis of the deposited data

How the results depend on the processing

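No call changed its direction in any setting. Medians near 0 (both agents against 1 agent in KO, and KO against WT over 4 treatments) took either sign when 1 library was left out. That of both agents against BMX-001 in KO kept its sign in only 1 of 16 such fits (-0.009 to 0.029). For BMX-001 against PBS in KO the 16 medians (0.065 to 0.148) all lay below that of the full fit. Leaving out a library also changed which genes were tested (19694 without KO BMX-001 replicate 1). Other medians that a single library moved by over 1.5 times are given with that value in the results. The counts of members called moved most. For 5-FU against PBS in WT the main count of 1 became 11 with no filter, 0 with GC and length trends removed, 0 with the replicate block, 0 with the replicate block and trends removed, 7 with 15 libraries and trends removed, 0 with only the groups compared and 23 in DESeq2; leaving out 1 library gave 0 to 33 (33 without either KO BMX-001 library, 2 without WT PBS replicate 1). Starting from 15 libraries and dropping a further one, a setting chosen after seeing the data, gave 33 and 12 (the WT PBS libraries) and 10 and 1 (the WT 5-FU libraries). The other main counts were 0. With no filter they became 1 for BMX-001 against PBS in WT, 2 for both agents against PBS in WT, 6, 1 and 2 in KO for BMX-001 against PBS, both against PBS and both against BMX-001, and 2 for KO against WT over 4 treatments. In DESeq2 these were 2 for both agents against PBS in WT, 1, 7, 1 and 2 in KO for 5-FU, BMX-001 and both against PBS and both against BMX-001, and 1 for KO against WT. With 15 libraries and trends removed 2 were called for both agents against PBS in KO and 2 for KO against WT, and with only the groups compared 5 for both agents against PBS in KO. Leaving out 1 library gave 0 to 1 for both agents against PBS in WT, 0 to 2, 0 to 47 and 0 to 6 in KO for 5-FU, BMX-001 and both against PBS, 0 to 40 for both against BMX-001 and 0 to 16 for KO against WT; the 47, 40 and 16 came without KO BMX-001 replicate 2, where the library that stands apart is alone in its group and is assumed to vary like the others. Over all named members, 1510 values stayed on their side of the threshold, 101 passed it and 17 no longer did; the cause was not tested. Same-numbered replicates deviated in no common direction over 28 pairs of groups (correlation -0.54 to 0.37, median 0.015, 10 over 0.1). The labels do not say whether replicate numbers were paired across groups, and these correlations cannot show it. The replicate block changed no call beside Zfp958 (1.01, adjusted p = 0.1136 in edgeR). Members that share over 10% of windows changed no count by over 1.5 times. A planned count without near-identical proteins was not run. Genes near 1 CPM carry few counts and the widest errors.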
